A study of Homo sapiens with 6 samples.

Results

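Genomic imprinting was examined here through 10 imprinted genes in clones grown from KYSE150, a cell line of human squamous cell carcinoma of the oesophagus. The genes were PLAGL1, HYMAI, H19, IGF2, MEG3, PEG3, PEG10, SGCE, MEST and KCNQ1OT1, 10 of the 40448 gene IDs measured. They were picked from the imprinted genes and chosen by their measured log2 RPKM in these clones, since PLAGL1 and HYMAI were on in some clones of both groups and near 0 in others. The differences between clones that led to this choice are therefore given as descriptions. Of the genes, 6 were above 0 in at least 3 of the 6 libraries and entered the test, which left IGF2, MEG3, PEG3 and KCNQ1OT1 outside it.

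The study compared stable transfectants of KYSE150: 3 mock clones (1, 4 and 5) with the pIRES2-EGFP vector and 3 clones (1, 6 and 17) with a human NCCRP1 expression vector. The NCCRP1 protein belongs to the F-box family of proteins. Each line is 1 clone and gave 1 library of ribosomal-RNA-depleted total RNA, so a value of a single clone has no error of its own. The p-values set a group difference against the spread between libraries of a group. In that spread clone, library and sequencing run cannot be told apart. Levels are log2 RPKM, the logarithm of a read count scaled to exon length and library size, and a gene listed at 0 was either under 1 RPKM or without an estimate.

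An imprinted gene is transcribed mainly from the allele of 1 parent, because an imprinting control region carries DNA methylation on the other parental copy or on its own. PLAGL1, HYMAI, IGF2, PEG3, PEG10, SGCE, MEST and KCNQ1OT1 are known as paternally expressed genes, and H19 and MEG3 as maternally expressed ones. Because only 1 copy is active, loss or methylation of that copy can leave a cell without the transcript, and imprinted genes are often altered in carcinomas. Neither methylation nor allele of origin was measured in these clones.

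Libraries held 12477 to 12821 genes above 0 at an estimated 12290000 to 18070000 reads. NCCRP1, the transfected gene, was listed at 0 in every mock clone, and its log2 RPKM reached 6.19, 8.07 and 6.71 over NCCRP1 clones 1, 6, 17. The squamous markers KRT5 (9.54 to 10.86) and TP63 (3.94 to 4.97) were present in all 6 libraries, whereas SOX2 was listed at 0 in NCCRP1 clone 6. KRT14 (1.11 to 4.22) and KRT17 (6.24 to 8.59) varied more. The highest and lowest clone lay at least 2 apart for 3 of the 8 squamous markers, against 1.53% of all tested genes. COL1A1 (1.32 to 2.57) was the fibroblast marker above 0, with the other 4 at 0, and all 4 leukocyte and all 4 trophoblast markers were at 0 in every library. Of 3 endothelial markers CDH5 reached 0.66 in 1 library, and of 4 germ-cell or embryonal markers POU5F1 lay between 0.10 and 1.03.

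The start regions of the genes whose levels differed most between clones show how the pair on chromosome 6 is built. RefSeq gives PLAGL1 5 start windows, each from 250 bases before to 50 bases after a start, and 1 of them is the only window of HYMAI, so a PLAGL1 start and the HYMAI start coincide. The first of the PLAGL1 windows is an upstream start that HYMAI does not share, and H19 has a single window. The sequences are from RefSeq on GRCh38.p14, all on the minus strand and written 5′ to 3′, with CpG dinucleotides in capitals because CpG methylation is the mark on which imprinting rests.
PLAGL1 and HYMAI, shared start, chr6:144008210-144008509: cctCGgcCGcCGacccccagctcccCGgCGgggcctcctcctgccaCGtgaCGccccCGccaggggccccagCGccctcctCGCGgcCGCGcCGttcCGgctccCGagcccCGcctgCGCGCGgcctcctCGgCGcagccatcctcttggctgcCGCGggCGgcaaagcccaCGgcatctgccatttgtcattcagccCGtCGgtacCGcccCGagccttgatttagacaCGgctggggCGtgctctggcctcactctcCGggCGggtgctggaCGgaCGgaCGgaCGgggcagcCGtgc
PLAGL1, upstream start, chr6:144064550-144064849: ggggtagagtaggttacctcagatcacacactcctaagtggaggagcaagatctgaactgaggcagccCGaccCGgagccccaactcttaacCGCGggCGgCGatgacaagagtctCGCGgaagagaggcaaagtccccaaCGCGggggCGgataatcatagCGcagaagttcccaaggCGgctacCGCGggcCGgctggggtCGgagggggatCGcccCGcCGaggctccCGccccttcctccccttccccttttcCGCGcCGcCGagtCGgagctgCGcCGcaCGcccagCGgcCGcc
H19, chr11:2001217-2001516: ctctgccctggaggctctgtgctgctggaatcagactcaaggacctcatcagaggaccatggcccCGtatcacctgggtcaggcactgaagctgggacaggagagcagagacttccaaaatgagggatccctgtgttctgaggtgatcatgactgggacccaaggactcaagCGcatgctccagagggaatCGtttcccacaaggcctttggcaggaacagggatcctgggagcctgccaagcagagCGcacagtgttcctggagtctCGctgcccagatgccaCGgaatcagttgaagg

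The shared PLAGL1 and HYMAI window holds 39 CpG dinucleotides, a number that 8.71% of the 34943 windows of all genes reach. This region is known as the imprinted, differentially methylated start of the locus. The upstream PLAGL1 window holds 31 (20.6% of windows reach this), and the other 3 PLAGL1 windows hold 2 or 3. H19 has 6 CpG dinucleotides in its window, as many as 66.2% of windows hold or exceed. The letters GGGGCCCC, which read the same on both strands and form the core element bound by the PLAGL1 protein, occur once in the shared window, 188 bases before the start, and in neither of the other 2 printed windows. They occur in 1.95% of all windows. A match of letters is no evidence of binding. Windows were found for 5 of the 10 genes; those of MEG3 held 17 to 19 CpG dinucleotides and those of MEST 13 to 25.

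PLAGL1 (Entrez 5325) was high in 1 clone of each group. It encodes a zinc finger transcription factor that restrains proliferation and was first known as ZAC1 or LOT1. Its log2 RPKM was 3.27, 0.13 and 0.83 over mock clones 1, 4, 5 against 0.23, 0.00 and 3.22 over NCCRP1 clones 1, 6, 17. Mock clone 1 and NCCRP1 clone 17 were high and nearly level. Of the other 4 clones NCCRP1 clone 6 was listed at 0. Mock clones 4 and 5 and NCCRP1 clone 1 were low but above the floor of the files. In RPKM the level was 9.67 in mock clone 1 against 1.10 in mock clone 4 (8.82-fold) and 1.78 in mock clone 5 (5.43-fold). It was 9.30 in NCCRP1 clone 17 against 1.17 in NCCRP1 clone 1, or 7.93-fold. In order, mock clone 1 and NCCRP1 clone 17 came first, then mock clone 5, NCCRP1 clone 1, mock clone 4 and NCCRP1 clone 6. With 1 library a clone there is no spread against which neighbours in this order can be judged. In such bulk libraries fewer expressing cells and less RNA per cell cannot be told apart.

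HYMAI (Entrez 57061), a noncoding RNA of the same locus, had the same pattern. It stood at 3.39, 0.12 and 0.94 over mock clones 1, 4, 5 against 0.34, 0.00 and 3.33 over NCCRP1 clones 1, 6, 17. The difference between the HYMAI and PLAGL1 levels was between -0.02 and 0.12 over the 6 clones, so both genes were high in the same clones and at nearly the same level per kilobase. They lie on the same strand, and in GENCODE v29 289 exonic bases belong to both, 8.63% of HYMAI's 3347 and 3.31% of PLAGL1's 8733. The annotation the authors counted on is not given in the sources used here, so reads of HYMAI and PLAGL1 cannot be told apart for the shared part.

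**Figure D1:**
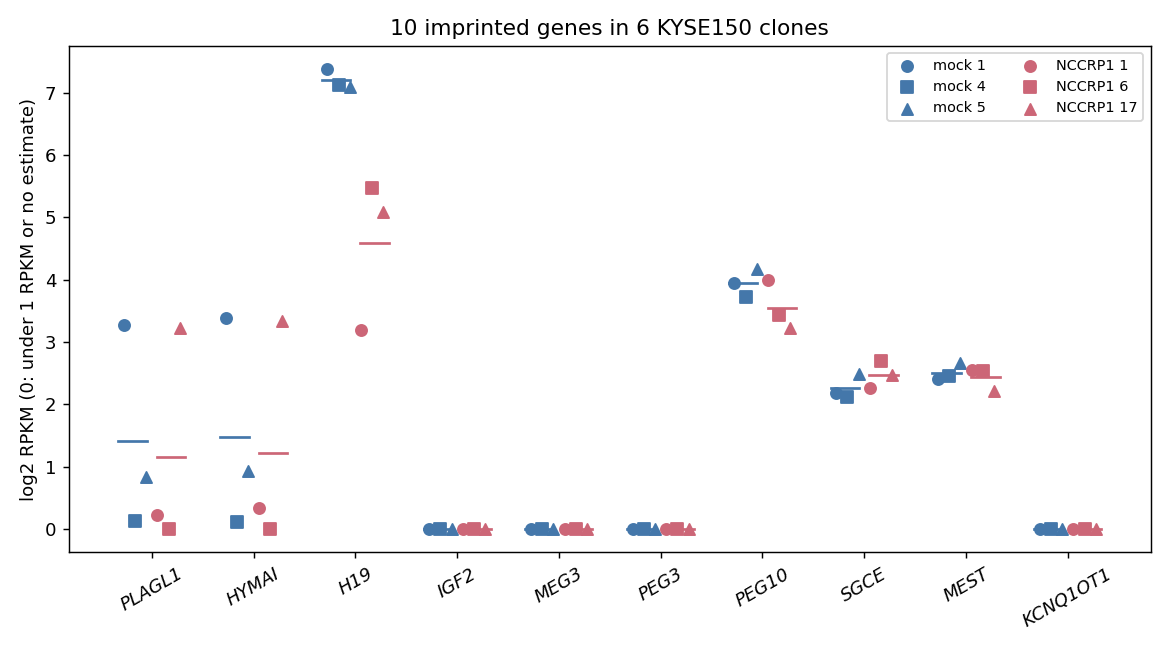
Log2 RPKM (y axis) of each of the 10 genes (x axis) in 3 mock clones (blue) and 3 NCCRP1 clones (red); each point is 1 library and each bar is the mean of 3 clones, with no error bar. PLAGL1 and HYMAI are high in mock clone 1 and NCCRP1 clone 17, H19 is lower in all 3 NCCRP1 clones, PEG10, SGCE and MEST vary little, and 4 genes are listed at 0 throughout.

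The group means of PLAGL1 were 1.41 ± 1.65 (mock) against 1.15 ± 1.79 (NCCRP1; SD, n = 3 each). Their difference of -0.26 (SE 1.26) did not pass limma's test (adjusted p = 0.993 over the 12737 tested genes). HYMAI differed by -0.25 (SE 1.30, limma adjusted p = 0.994). The spread within each group was thus several times larger than the difference between groups for both genes. Of the PLAGL1-high clones, mock clone 1 was read in sequencing run 15 and NCCRP1 clone 17 in run 14. Each run also held clones near the floor. Each clone had 1 library in 1 run, so clone and run cannot be told apart, and the part of run was not tested. Run 15 held mock clones 1 and 4 and NCCRP1 clone 1, and run 14 held mock clone 5 and NCCRP1 clones 6 and 17. A difference within a run thus rests on a single clone of 1 group. Within run 15 the PLAGL1 difference between NCCRP1 and mock clones was -1.47 and within run 14 it was 0.78. Among markers of other cell types, COL1A1 was highest in the PLAGL1-high clones: the summed RPKM of the 5 fibroblast markers was 5.96, 4.13 and 3.50 over mock clones 1, 4, 5 against 2.49, 2.56 and 5.62 over NCCRP1 clones 1, 6, 17. The sum was COL1A1 alone, with COL1A2, DCN, LUM and PDGFRA at 0 in each library, and among the other clones it did not follow the order of PLAGL1. The summed squamous markers were lowest in NCCRP1 clone 17, at 897, and between 1420 and 2130 elsewhere. The part of either in the PLAGL1 levels was not tested.

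The expressed genes around PLAGL1 were compared with it next. The 4 nearest protein-coding genes on each side that were above 0 in every library were PEX3, FUCA2, PHACTR2 and LTV1 before it and SF3B5, STX11, UTRN and FBXO30 after it in RefSeq order. Their ranges over the 6 clones, the highest minus the lowest log2 RPKM, were 0.40 to 1.16 with a median of 0.56, against 3.27 for PLAGL1 and 3.39 for HYMAI. PLAGL1 and HYMAI would not pass that filter, which leaves out any gene listed at 0 in a clone, so the narrow ranges are partly set by it. With no filter, 10 protein-coding genes lay between PEX3 and FBXO30, PLAGL1 aside: the 8 named, ZC2HC1B, listed at 0 throughout, and EPM2A, the laforin gene. EPM2A was at 0.11, 0.00 and 0.42 over mock clones 1, 4, 5 against 0.05, 0.00 and 0.00 over NCCRP1 clones 1, 6, 17, near the floor in every clone. LTV1, a ribosome biogenesis factor gene and the nearest of the 4 before PLAGL1, was at 3.01, 3.11 and 3.41 over mock clones 1, 4, 5 against 3.50, 3.35 and 3.20 over NCCRP1 clones 1, 6, 17. SF3B5, a splicing factor subunit gene and the nearest after it, was at 5.92, 5.60 and 5.66 and at 5.86, 5.67 and 5.43 in the same order. Mock clone 1 and NCCRP1 clone 17, the PLAGL1-high clones, held the highest and the lowest SF3B5 value and the lowest and the fourth highest LTV1 value. STX11, with the widest range of the 8, was highest in NCCRP1 clone 6 (1.97), where PLAGL1 was listed at 0, and lowest in mock clone 5 (0.80); its groups did not overlap, and limma's adjusted p was 0.637.

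H19 (Entrez 283120), a maternally expressed long noncoding RNA that also carries the hairpin of MIR675, had the highest level of the 10 genes in every mock clone and a lower level in each NCCRP1 clone. It was at 7.38, 7.12 and 7.09 over mock clones 1, 4, 5 against 3.19, 5.47 and 5.09 over NCCRP1 clones 1, 6, 17. The groups did not overlap, mock clones lay close together, and NCCRP1 clone 1 was far below the other NCCRP1 clones. In RPKM this is 167, 139 and 136 against 9.10, 44.2 and 34.2, an 18.3-fold span from the highest to the lowest clone and a 4.86-fold span within the NCCRP1 group. The means were 7.20 ± 0.16 and 4.58 ± 1.22 (SD, n = 3 each), a difference of -2.62 (SE 0.60), which is a 6.13-fold higher level in mock clones.

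This difference did not pass limma's test (unadjusted p = 0.00509, adjusted p = 0.360). The exact two-sided permutation test gave p = 0.1, the smallest value that 3 against 3 clones allow. Any gene whose groups do not overlap gives that value, so nothing is read from it. Without NCCRP1 clone 1 the difference was -1.92 and the limma adjusted p was 0.00593, while leaving out any other clone gave adjusted p from 0.285 to 0.857. The difference was -4.07 within run 15, where NCCRP1 clone 1 is the only NCCRP1 clone. It was -1.81 within run 14, which holds a single mock clone. Of the 6 tested members none passed at an adjusted p of 0.05, where 0.102% of all tested genes did (0.0314% lower and 0.0707% higher), and H19 alone had an unadjusted p under 0.05, as 7.33% of all tested genes had. It was also the only member whose groups did not overlap; 7.05% of all tested genes lay wholly lower in the NCCRP1 clones.

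The nearest expressed neighbours of H19, kept by the same filter, varied less than H19. TNNT3 and MRPL23 before it and CD81 and TSSC4 after it had ranges of 0.32 to 0.81 over the 6 clones, against 4.20 for H19, and the other 7 protein-coding genes between them were listed at 0 throughout. Farther out, before TNNT3, TNNI2 and SYT8 were lowest in NCCRP1 clone 1, the clone with the lowest H19; both were chosen after their values were seen. TNNI2, a troponin gene, was at 3.29, 3.32 and 3.01 over mock clones 1, 4, 5 against 1.30, 2.89 and 3.40 over NCCRP1 clones 1, 6, 17 (limma adjusted p = 0.875). MRPL23, which encodes a mitochondrial ribosomal protein, was at 5.55 ± 0.16 in both groups (SD, n = 3 each) and at 5.60 in NCCRP1 clone 1. In GENCODE v29 it shares no exonic base with H19. IGF2, the growth factor gene that shares its enhancers with H19 and is known as its reciprocally imprinted partner, was listed at 0 in all 6 clones, whether H19 was high or low. INS-IGF2, the read-through with which IGF2 shares 20.6% of its exonic bases, was listed at 0 as well, as were IGF2-AS and INS. MIR675 was listed at 0 in every library, as were the other 11 microRNA genes of the list drawn up for microRNAs in or near H19, IGF2, MEST and MEG3.

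**Figure D2:**
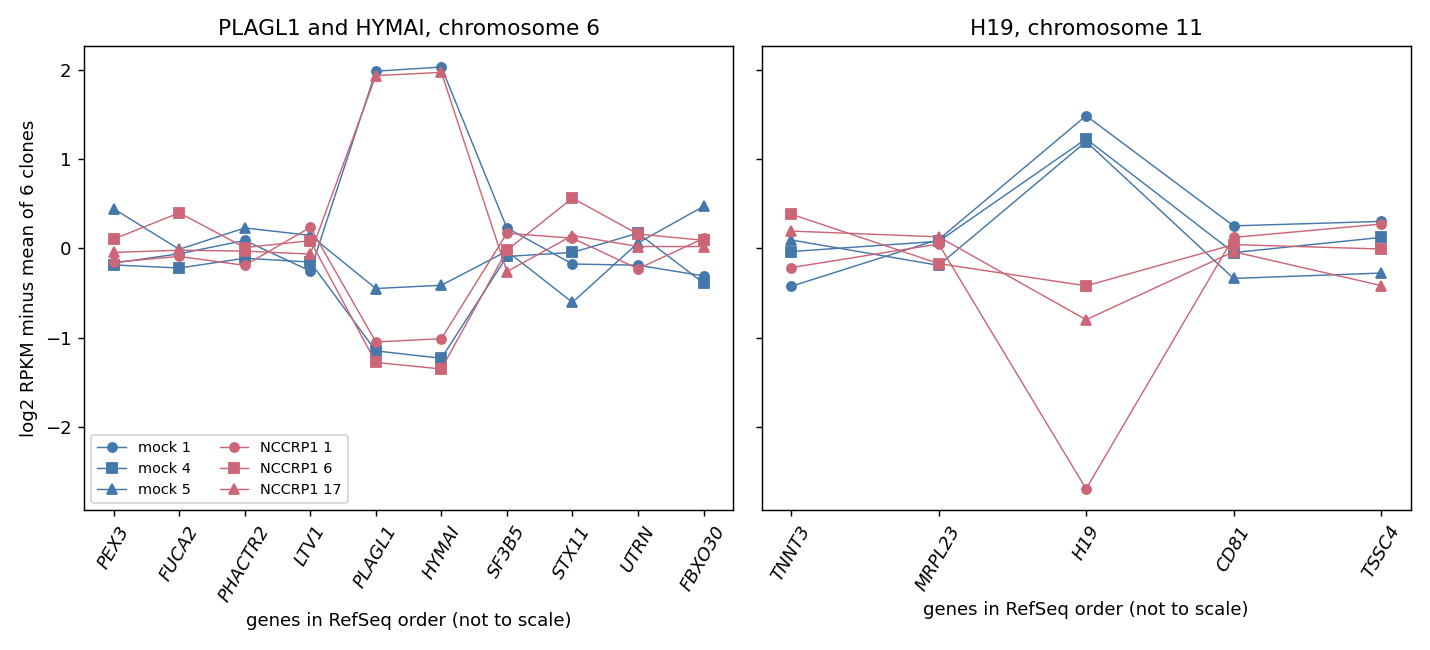
Log2 RPKM minus the mean of the 6 clones (y axis) for PLAGL1, HYMAI and the 4 expressed protein-coding genes on each side (left) and for H19 and 2 on each side (right), in RefSeq order and not to scale; each line is 1 clone, blue for mock and red for NCCRP1. The clones part at PLAGL1 and HYMAI, and by group at H19, while the flanking genes, drawn only if above 0 in all 6 clones, have ranges of 0.40 to 1.16 (left) and 0.32 to 0.81 (right).

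KCNQ1OT1, the paternally expressed antisense RNA that silences the neighbouring imprinted domain on chromosome 11, was listed at 0 in all 6 libraries. KCNQ1, within which it lies, and CDKN1C, a growth-restraining kinase inhibitor gene of that domain, were also listed at 0. PHLDA2 and SLC67A1 of the same domain were on. PHLDA2, a placental growth regulator gene, was at 2.30, 2.32 and 1.66 over mock clones 1, 4, 5 against 1.57, 2.15 and 2.16 over NCCRP1 clones 1, 6, 17, with overlapping groups (difference -0.13, SE 0.25, limma adjusted p = 0.971). SLC67A1, listed under its older symbol SLC22A18, lay between 3.11 and 3.87 and differed by 0.12 (SE 0.21, limma adjusted p = 0.966).

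PEG10, SGCE and MEST on chromosome 7 were on in every clone. PEG10, a retrotransposon-derived gene with a growth-promoting role in placenta and tumours, was at 3.94, 3.72 and 4.17 over mock clones 1, 4, 5 against 3.99, 3.43 and 3.23 over NCCRP1 clones 1, 6, 17. NCCRP1 clones 6 and 17 lay below all mock clones and NCCRP1 clone 1 lay among them. The difference of -0.39 (SE 0.21) did not pass (limma adjusted p = 0.756). It was -0.84 within run 14 and 0.16 within run 15, each resting on a single clone of a group.

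SGCE, the gene of epsilon-sarcoglycan, is transcribed from the opposite strand next to PEG10 and belongs to the same imprinted domain. It stood at 2.19, 2.12 and 2.48 over mock clones 1, 4, 5 against 2.26, 2.70 and 2.47 over NCCRP1 clones 1, 6, 17. The groups overlapped, and the difference of 0.21 (SE 0.19, limma adjusted p = 0.916) had the sign opposite to that of PEG10. NCCRP1 clone 6, highest for SGCE, was next to lowest for PEG10. In GENCODE v29 the exons of both genes share 219 bases, 3.27% of PEG10's, and without a stated use of strand these reads could count for either. The maternally expressed PPP1R9A and TFPI2 of the same region were listed at 0.

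MEST, which encodes an alpha/beta hydrolase-fold protein and is also known as PEG1, had the narrowest range of the 6 tested members. It was at 2.41, 2.45 and 2.66 over mock clones 1, 4, 5 against 2.55, 2.54 and 2.21 over NCCRP1 clones 1, 6, 17. The means of 2.50 ± 0.14 and 2.43 ± 0.19 (SD, n = 3 each) differed by less than either SD (-0.07, SE 0.18, limma adjusted p = 0.986). COPG2, a coatomer subunit gene on the opposite strand whose exons overlap 4.76% of those of MEST, was at 4.26 to 4.98. MESTIT1, antisense to MEST over 10.1% of its exonic bases, was listed at 0, and CPA4 was above 0 in NCCRP1 clones 1 (0.09) and 6 (0.29) alone.

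MEG3 and PEG3 were listed at 0 in all 6 clones. MEG3 is the maternally expressed noncoding RNA of the chromosome 14 domain and is known as a growth suppressor often lost in tumours. Its partners DLK1, RTL1 and MEG8 were listed at 0 too. PEG3, a zinc finger protein gene on chromosome 19, shares 12.9% of its exonic bases with ZIM2, which was also at 0. A listed 0 here allows any level under 1 RPKM, which at the estimated depths is 12.3 to 18.1 reads per kilobase of exon, and some listed zeros may be failed estimates. The untransfected parent line is not analysed here.

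Set against all tested genes, the ranges of 3 members were among the widest and those of the other 3 lay where most genes lie. The range was 4.20 for H19, reached by 0.141% of tested genes, 3.39 for HYMAI (0.330%) and 3.27 for PLAGL1 (0.377%). Without NCCRP1 clone 1 the H19 range was 2.29, and within run 14 it was just under 2; those of PLAGL1 and HYMAI were between 3.14 and 3.33 within either run. The range of PEG10 was 0.94 (18.8%), for SGCE 0.58 (54.7%) and for MEST 0.45 (73.9%), and the median of all tested genes was 0.616. A range of at least 2 was found for 3 members and for 1.53% of tested genes. Since the differences between clones led to the choice of the members, nothing is read from that contrast.

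**Figure D3:**
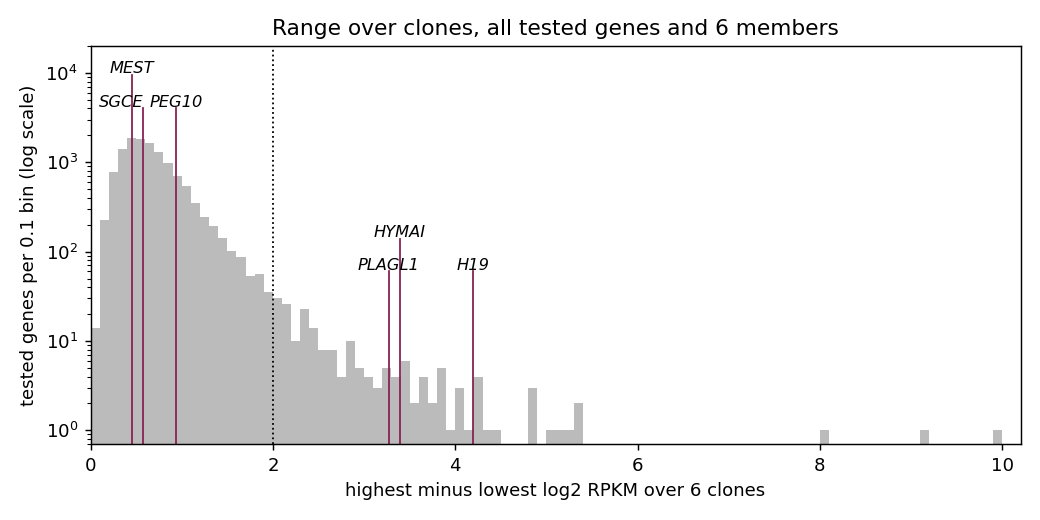
Number of tested genes per bin of 0.1 (y axis, log scale) by the highest minus the lowest log2 RPKM over the 6 clones (x axis); vertical lines mark the 6 tested members and the dotted line a range of 2. H19, HYMAI and PLAGL1 lie beyond 3 and PEG10, SGCE and MEST below 1, among most of the 12737 genes.

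Beyond the 10 members, 63 of 68 other listed imprinted symbols were matched, 40 were listed at 0 in all libraries and 20 were tested. None passed limma's test (1 of 20 had an unadjusted p under 0.05, against 7.33% of all tested genes); 14 had a lower and 6 a higher mean in the NCCRP1 clones, and 53.3% of all tested genes had a lower one. The groups did not overlap for 5 of the 20 (4 lower and 1 higher), against 12.8% of all tested genes in either direction. The median difference was -0.07, against -0.0157 for all tested genes, and the median range 0.725, against 0.616.

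A second pair of overlapping, paternally expressed genes differed between clones as PLAGL1 and HYMAI did, but by being low in a single clone. SNRPN, on chromosome 15, which encodes a small nuclear ribonucleoprotein of the Prader-Willi region, was at 2.81, 2.67 and 2.86 in mock clones 1, 4 and 5. It was at 2.17, 2.68 and 0.05 in NCCRP1 clones 1, 6 and 17, so NCCRP1 clone 17, high for PLAGL1, was close to the floor. SNURF, which shares 69.3% of its exonic bases with SNRPN, was at 3.30, 3.15 and 3.34 and at 2.65, 3.16 and 0.48 in the same order. Neither passed (limma adjusted p of 0.805 and 0.821), and the ranges of 2.82 and 2.86 were reached by 0.557% and 0.510% of tested genes; without NCCRP1 clone 17 each range was 0.69. MKRN3 and UBE3A of the same region, chosen after their values were seen, were at 3.42 and 3.13 in NCCRP1 clone 17, and over all 6 clones their ranges were 0.43 each. MKRN3 is paternally expressed, while UBE3A is known to be imprinted mainly in neurons.

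The next widest ranges among the tested genes listed as imprinted, other than the 10 members, were 1.16 for NNAT, 0.98 for FAM50B, 0.87 for TP73 and 0.80 for NAP1L5. TP73, a p53 family gene, was at 0.61, 0.61 and 0.87 over mock clones 1, 4, 5 against 0.14, 0.00 and 0.00 over NCCRP1 clones 1, 6, 17 (limma adjusted p = 0.434). NNAT, a small membrane protein gene within an intron of BLCAP, was at 1.68 ± 0.27 and 1.21 ± 0.35 (SD, n = 3 each; limma adjusted p = 0.749), while BLCAP was at 5.61 ± 0.15 and 5.63 ± 0.07. FAM50B, on chromosome 6 as PLAGL1 is, was highest in NCCRP1 clone 17 (3.14) and lowest in mock clone 5 (2.16), with mock clone 1 at 2.80.

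**Figure D4:**
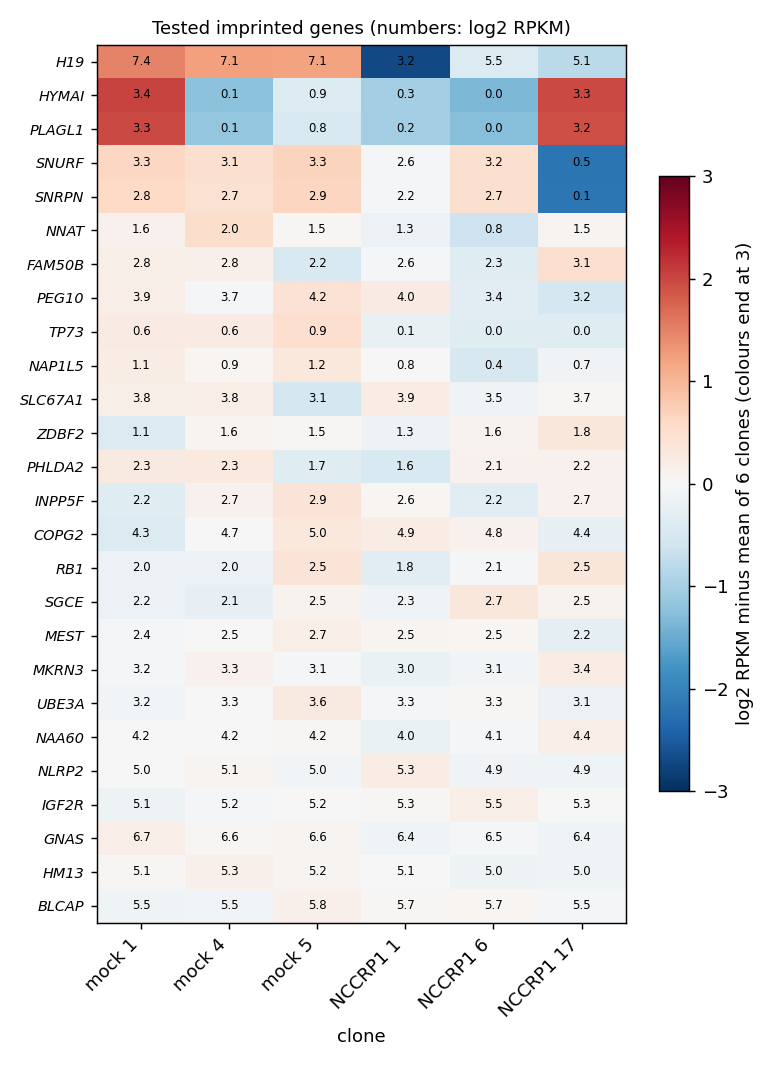
Log2 RPKM of the 26 tested genes listed as imprinted (rows, by falling range) in the 6 clones (columns). Numbers are log2 RPKM and colours the difference from the mean of the 6 clones. H19, the PLAGL1 and HYMAI pair and the SNURF and SNRPN pair change in different clones, and the rows below them stay within 1.16.

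Reported targets of PLAGL1 were followed because the PLAGL1-high clones belong to both groups. The list also holds the members H19, IGF2 and KCNQ1OT1, whose levels are given above. H19 was highest in mock clone 1 (7.38), but in NCCRP1 clone 17 (5.09) it lay below every mock clone. Apart from members, 3 of 9 were tested and 6 were listed at 0, among them CDKN1C, DLK1, PPARG and ADCYAP1R1, a neuropeptide receptor gene. None of the 3 passed limma's test, and 1 had an unadjusted p under 0.05, as 7.33% of all tested genes had. CDKN1A, the p21 gene, was at 5.78, 5.76 and 5.58 over mock clones 1, 4, 5 against 5.94, 5.95 and 5.79 over NCCRP1 clones 1, 6, 17. SOCS3, a brake on cytokine signalling, was at 4.19, 4.59 and 3.85 and at 4.27, 4.94 and 5.01, and APAF1, a gene of the apoptosome, at 1.43, 1.51 and 1.98 and at 1.43, 1.33 and 1.80. Mock clone 1 and NCCRP1 clone 17 did not stand apart from the other clones for these 3 genes.

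The genes whose profile over the 6 clones came closest to that of PLAGL1 were found by the root mean square distance between profiles, each centred on its own mean. HYMAI was nearest, at 0.06, then NR5A1 at 0.44, MIR4508 at 0.62, ARSI at 0.69 and MIR218-2 at 0.70, and the median tested gene was at 1.43. NR5A1, the gene of the nuclear receptor steroidogenic factor 1, was at 6.49, 2.88 and 4.87 over mock clones 1, 4, 5 against 3.77, 3.19 and 7.08 over NCCRP1 clones 1, 6, 17. It too was highest in mock clone 1 and NCCRP1 clone 17, but at a much higher level than PLAGL1 and well above 0 in every clone. ARSI, an arylsulfatase family gene, was at 4.35, 2.99 and 3.30 and at 1.51, 1.08 and 4.92. At the estimated depths MIR4508 came to about 4, 1 and 3 reads in mock clones 1 and 4 and NCCRP1 clone 17. It was listed at 0 elsewhere, so by that estimate its place in this order rests on few reads. MIR218-2 came to at most 10 reads a library by the same estimate. Larger multiples of the depths, and so of these counts, are possible. The profiles come from the same 6 libraries.

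The IGF axis, through which IGF2 acts, was partly on. Of its 17 genes other than IGF2, 9 were tested and 7 listed at 0, among them the ligand gene IGF1 and the binding protein genes IGFBP1, IGFBP2, IGFBP4 and IGFBP5. None passed limma's test, and 3 reached a limma unadjusted p under 0.05 (7.33% of all tested genes did). In the NCCRP1 clones 6 had a higher and 3 a lower mean than in mock clones, where 53.3% of all tested genes had a lower one. IGF1R, the receptor through which IGF2 signals, was at 4.63 ± 0.03 (mock) against 4.66 ± 0.24 (NCCRP1; SD, n = 3 each). IGF2R, whose product clears IGF2 and which is also on the imprinted list, was at 5.19 ± 0.07 and 5.35 ± 0.10. The widest range was that of IGFBP3, an IGF-binding protein gene, at 2.81, 3.74 and 2.58 over mock clones 1, 4, 5 against 3.43, 4.60 and 3.76 over NCCRP1 clones 1, 6, 17 (limma adjusted p = 0.631). IGFBP7 was at 7.58 ± 0.22 and 8.28 ± 0.37 with no overlap (limma adjusted p = 0.402).

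Genes listed for imprint maintenance were mostly a little lower in the NCCRP1 clones, and none passed limma's test. A limma unadjusted p under 0.05 was found for 3 of 20, against 7.33% of all tested genes. The list also holds general chromatin genes and the DNA demethylation genes TET2 (difference -0.11) and TET3 (-0.38), which count among the lower ones. Of 28 listed, 8 were at 0 in all libraries, among them ZFP57, a zinc finger protein that protects imprints in the embryo, and 20 were tested. The mean was lower in 18 of the 20, where 53.3% of all tested genes were lower, and the median difference was -0.188 against -0.0157. The groups did not overlap for 5 of the 20, TET3 among them and all lower, against 7.05% of all tested genes. UHRF1, which recruits the maintenance DNA methyltransferase, was at 5.38, 5.25 and 5.09 over mock clones 1, 4, 5 against 4.57, 5.07 and 4.19 over NCCRP1 clones 1, 6, 17 (difference -0.63, SE 0.21, limma adjusted p = 0.451). DNMT1, that methyltransferase, was at 6.44 ± 0.08 and 6.11 ± 0.22 and CTCF, the insulator protein bound between H19 and IGF2, at 5.33 ± 0.21 and 4.99 ± 0.15 (SD, n = 3 each; limma adjusted p of 0.688 and 0.683); both were chosen after their values were seen. EZH2, a Polycomb methyltransferase gene, was at 4.18 ± 0.12 and 3.74 ± 0.22. NCCRP1 clone 1, lowest for H19, was lowest for DNMT1 (5.92), EZH2 (3.57) and several other genes of the list. For CTCF it was not lowest (5.16, against 5.09 in mock clone 4). NCCRP1 clone 17, lowest for SNRPN, was lowest for UHRF1 and CTCF (4.87) but highest for DNMT3B (2.48) and HELLS (2.98). These comparisons were picked after the values were seen, and the part of these genes in the H19 and SNRPN levels was not tested.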

How the data were processed

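The deposited files list 40448 Entrez IDs with a column headed RPKM per the file headers; its values are on a log2 scale, as the authors deposited them, for each of 6 libraries. Raised to the power of 2 and multiplied by transcript length in kilobases they summed to 1130000 to 1150000 a library, and as natural logarithms to at least 11500000. Build hg19 and bedtools 2.25.0 are named in the submitters' processing notes with no role; aligner and counting method are not given in the sources used here. Libraries were grouped by title, and sequencing runs were read from the names of the deposited data.

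Reads per library were estimated from whole-read steps of microRNA genes, searched from 8000000 to 20000000. At the depths kept, 24.6% to 34.3% of values under 8 steps lay within 0.005 of a whole number. At a depth fixed in advance 1% would by chance. Each depth was chosen for the largest such share, so that 1% is too low to compare with. Larger multiples are possible. Too few were whole to recover counts.

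Symbols came from RefSeq (GRCh38.p14) for 37997 IDs; 5 listed imprinted symbols were not matched or repeated another and are not analysed here. Genes above 0 in at least 3 libraries were compared with limma 3.58.1 in R 4.3.3 (trended, robust, group as sole term, two-sided, Benjamini-Hochberg, threshold 0.05) on the deposited log2 values, after the test was tested on simulated data. Named were all members, the 6 other imprinted genes of largest range, partners of members, up to 4 per further list, flanking genes and the 5 nearest profiles; other non-members given with values were chosen after their values were seen. Members and lists were chosen with earlier results of these data known.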

Additional observations from a re-analysis of the deposited data

How the results depend on the processing

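The number of genes passing limma was 13 of 12737 and fell to 4 with log2(RPKM + 1), 1 with log2(RPKM + 0.1), 3 with no filter (every gene above 0 in a library), 7 with genes above 0 in all 6 libraries, 5 with robust=FALSE and 2 with the run as a term; leaving out 1 clone at a time it ranged from 0 (without mock clone 5, with 1363 genes at an unadjusted p under 0.05) to 29 (without NCCRP1 clone 1). The members passing ranged from 0 to 1, the 1 being H19 without NCCRP1 clone 1; without a clone its difference ranged from -3.06 to -1.92. Without NCCRP1 clone 1 the H19 difference was smaller (-1.92 against -2.62), but its SE was 0.181, against 0.598 with all clones. The cause of the H19 difference was not tested. The difference changed sign when 1 clone was left out for PLAGL1 (-1.30 to 0.666), HYMAI (-1.31 to 0.700) and MEST (-0.131 to 0.0380). Members with a range of at least 2 numbered 3 under each setting tried except within run 14, where they numbered 2. No paired analysis was possible because the groups share a single clone number. The unfiltered flanking genes were added after seeing the data. Levels under 1 RPKM are hidden by the listed 0, which limits PLAGL1 and HYMAI in the low clones.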

Other observations

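The small nucleolar RNAs of the SNORD116 cluster, which are processed from the transcript that runs on from SNURF and SNRPN, were measured as 29 copies, 20 of them above 0 in all 6 libraries. Their median log2 RPKM was 4.48, 5.02 and 6.14 over mock clones 1, 4, 5 against 3.69, 4.62 and 2.53 over NCCRP1 clones 1, 6, 17. NCCRP1 clone 17, where SNRPN was near the floor, held the lowest value for 16 of the 20 copies. Copies listed at 0 in any clone are left out of these values, and 27 were above 0 in at least 1 library. Over the mock clones the medians spread from 4.48 to 6.14, while SNRPN was at 2.67 to 2.86. The copies have closely similar sequences, so single copies are uncertain and the 20 are not independent.

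The profiles closest to that of H19 over the 6 clones were those of NPDC1, SNORD107, KLK8, CACNG4 and FGFR3, at root mean square distances of 0.68 to 0.92, where the median tested gene was at 1.49. NPDC1 and KLK8 were among the genes lower in the NCCRP1 clones, each at an adjusted p of 0.0154 by limma. KLK8 was listed at 0 in NCCRP1 clones 1, 6 and 17. NPDC1 was listed at 0 in NCCRP1 clones 1 and 6 and stood at 0.98 in NCCRP1 clone 17. FGFR3, a growth factor receptor gene, was at 3.93, 3.80 and 3.85 over mock clones 1, 4, 5 against 2.19, 3.15 and 3.40 over NCCRP1 clones 1, 6, 17. SNORD107, which lies in the same chromosome 15 transcript as SNORD116, was at 2.12, 2.96 and 3.49 and at 0.00, 1.67 and 0.00.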
